A study of Mus musculus with 5 samples.

Results

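Solute carriers are membrane proteins that move nutrients, ions, metals and metabolites into and out of cells and organelles, and each numbered family shares sequence and, often, substrates. Their transcripts were read here in 5 mouse samples labelled FLT3+ and CD11b+. FLT3 is the receptor for a growth factor of dendritic cells, and CD11b is the integrin chain encoded by Itgam. The labels call these cells dendritic cell progenitors and number the samples 1 to 5. The labels do not say how the cells were isolated or whether they were cultured, and strain, age, sex, treatment and source animals are not stated there, so the samples form 1 group and no conditions could be compared. Where samples differ, the spread between them may be technical or biological.

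Every probe set whose platform gene symbol is Slc followed by a number was taken, and Slco symbols were left out. This gave 185 of 12422 probe sets, representing 151 of 8251 named genes. Of the 151 genes, 3 encode proteins that are not carriers themselves: Slc9a3r1 and Slc9a3r2, scaffold proteins of sodium and proton exchangers, and Slc4a1ap, named for binding band 3. A probe set annotated to a pair of carrier genes at once was not named. For the 29 genes with several probe sets, the one of highest mean log2 signal stands for the gene. In 14 of these genes the probe sets lay on different sides of the limit used below.

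Dividing blood progenitors take up glucose and amino acids for growth, iron and copper for respiratory enzymes, and zinc for many proteins. Most carriers of the SLC25 family pass metabolites across the inner mitochondrial membrane. Heteromeric amino acid exchangers pair a glycoprotein heavy chain with a light chain that does the transport, and lactate carriers of the SLC16 family need a chaperone glycoprotein to reach the cell surface. Macrophages and neutrophils are known for Slc11a1, a metal carrier of the phagosome.

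Signals are array intensities scaled so that every array had the median 103.4, and they are given without further change. A gene is called above the limit here if its signal was over the median of each of the 5 arrays. The limit gives a place within an array. It is no call of presence or absence, and it gives no order of amounts between genes, because each probe set has its own brightness. The genes of both labelled surface proteins lay above it, with Flt3 between 318 and 1268 and Itgam between 223 and 789. Of 5 fixed progenitor genes, these included, 4 were above the limit, and Cd34 was above the median on 3 arrays.

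The arrays differed in ways that touch all genes. For the transferrin receptor control, the ratio of 3′ to 5′ signal, a measure of RNA integrity, ran from 3.14 in sample 1 to 16.7 in sample 3, and that of the actin control from 1.08 in sample 1 to 5.20 in sample 4. Sample 1 had also been deposited on another scale, with a trimmed mean of 1001 against 200.1 in each of the others. The summed signal of 12 neutrophil granule genes was 82440 in sample 1 and between 135454 and 276174 in samples 2 to 5. That sum is weighted to its brightest genes, such as S100a8, with 9540 in sample 1 and between 41773 and 82007 in the others. Elane, Prtn3 and Ctsg of the same list went the other way and were highest in sample 1, with 10647, 6429 and 8592. The part of these differences in the results below was not tested.

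In all, 54 of 151 solute carrier genes (35.8%) were above the limit, where the background over all named genes was 44.5%. That 44.5% is also the background for each class, family and gene list counted here against the limit. The limit was passed on 1 to 4 arrays by 50 genes and on none by 47, or 31.1%, where the background was 26.7%. Fewer carriers than genes at large thus lay above the median throughout, a difference given here as a description with no test. Without the genes that are not carriers, 52 of 148 (35.1%) were above it. With the limit at the 75th percentile of each array, 17 solute carrier genes (11.3%) passed, where the background was 21.7%. At the 40th percentile 63 passed, where the background was 51.1%. Counted by probe set, 59 of 185 (31.9%) exceeded the median on all 5 arrays, where the background was 36.7%. In bulk samples, a lower signal from fewer cells of a type and from less RNA per cell cannot be told apart.

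**Figure D1:**
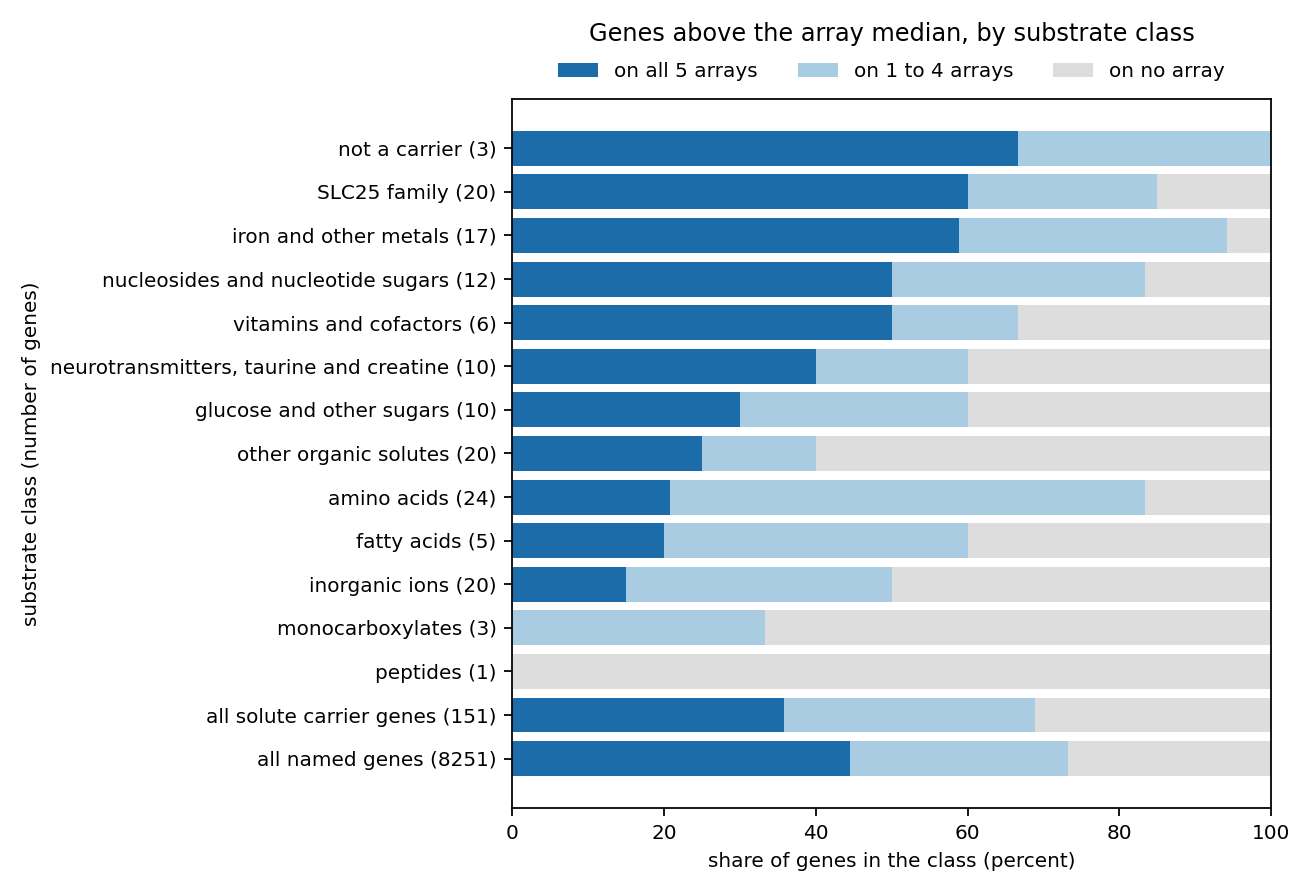
Share of genes (percent, horizontal axis) above the array median on all 5 arrays, on 1 to 4 arrays and on no array, for each substrate class (vertical axis, number of genes in parentheses), all 151 solute carrier genes and all 8251 named genes. SLC25 genes (12 of 20) and metal carriers (10 of 17) have long dark bars, and inorganic ion carriers (3 of 20) and amino acid carriers (5 of 24) have short ones.

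The limit was passed by 12 of 20 SLC25 genes (60.0%), a family of mitochondrial carriers with a peroxisomal member, Slc25a17, and by 10 of 17 carriers of iron and other metals (58.8%). The shares were 6 of 12 for nucleosides and nucleotide sugars, 3 of 6 for vitamins and cofactors, and 4 of 10 for neurotransmitters, taurine and creatine. Glucose and other sugars had 3 of 10, other organic solutes 5 of 20, amino acids 5 of 24 (20.8%), fatty acids 1 of 5 and inorganic ions 3 of 20 (15.0%). Of the 3 lactate and pyruvate carriers and the 1 peptide carrier, Slc15a2, 0 were above it. The order of the classes depended on the limit. At the 75th percentile the shares were 30.0% for SLC25 genes, 17.6% for metals, 16.7% for amino acids and 16.7% for nucleosides and nucleotide sugars. The background at that limit was 21.7%, under the SLC25 share and over the other shares just given. At the median, metals and nucleosides and nucleotide sugars had been above the background of 44.5%. Classes this small shift by large shares with a single gene.

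Amino acid carriers above the limit included both chains of the CD98 exchanger. Slc3a2, the CD98 heavy chain that escorts its light chains to the surface, had signals of 1309, 2402, 1684, 1730.4 and 1545 in samples 1 to 5. Slc7a5, the light chain LAT1 that imports leucine and other large neutral amino acids, had 968, 715, 471, 514 and 667. Both lay above the 75th percentile on all 5 arrays, and their extremes fell in different samples: Slc3a2 was highest in sample 2 and lowest in sample 1, Slc7a5 highest in sample 1 and lowest in sample 3. The mean was 1734 ± 408 for Slc3a2 and 667 ± 197 for Slc7a5 (SD, n = 5).

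Slc38a2, the sodium-coupled importer SNAT2 that takes up glutamine and other small neutral amino acids, had 1082, 1676, 1225, 2432 and 1043 in samples 1 to 5. Sample 4 was highest, at 2.33 times sample 5, the lowest. This gene has 3 further probe sets, and 0 of them rose above the median on any array. Slc38a10, a member of the same family, had 442, 288, 222, 338 and 450.2, with a second probe set above the median on 0 arrays. Slc66a2, placed here with the lysosomal amino acid carriers by its family, had 494, 396, 347, 527 and 441. Both were lowest in sample 3.

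Other amino acid carriers did not stay above the median. Slc1a5, the glutamine and neutral amino acid exchanger ASCT2, had 569.9, 130.0, 177, 24.7 and 50.3 in samples 1 to 5, above the median in samples 1 to 3. Its SD of log2 signal, 1.65, was the widest among the 79 solute carrier probe sets whose mean lay above the median. Slc7a7, the light chain of the cationic exchanger system y+L, lay above the median on 4 arrays, with 290.0, 16.8, 120.2, 226 and 189.8. Sample 2 was the low one, under the floor of 30.0 set for log2 values. The cystine importer gene Slc7a11 was between 22.4 and 106 and above the median on 1 array, and the arginine importer gene Slc7a1 was between 4.69 and 45.1 and above it on 0.

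The amino acid starvation response, in which the factor ATF4 raises carriers and synthesis enzymes, was read from a fixed list of 10 genes. Of 7 measured, 4 were above the limit: Atf4, Ddit3, Asns and Cebpb. The background was 44.5%, and a list this short shifts by a large share with a single gene. Atf4 had 4638.5, 4168, 1771, 3193 and 2462 in samples 1 to 5, and Asns, asparagine synthetase, had 2409, 1433, 749, 1211 and 1344. Ddit3, a stress-induced transcription factor, had 242, 632, 123, 234 and 209.9, and Cebpb, a factor of myeloid cells, had 3615, 1084, 2318, 1546 and 2509. Their patterns over the samples differed in part. Atf4, Asns and Ddit3 were lowest in sample 3, as was Slc7a5. Atf4, Asns and Cebpb were highest in sample 1, as was Slc7a5, while Ddit3 was highest in sample 2 and Cebpb was lowest there. The list's measured genes not above the limit, Trib3, Eif2ak4 and Atf3, were above the median on 3, 4 and 4 arrays. Slc3a2 and Slc7a11 were lowest in sample 1, and Slc38a2 was highest in sample 4 and lowest in sample 5. A link between the genes of the list and the carriers was not tested.

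Sugar carriers above the limit were Slc2a3, Slc2a8 and Slc50a1. Slc2a3, the high-affinity glucose carrier GLUT3, had 307, 327, 265, 502 and 411 in samples 1 to 5. A second probe set of Slc2a3 had 165, 94.6, 17.2, 18.0 and 84.0, above the median in sample 1 alone, so the gene's place rests on which probe set is read. Slc2a1, the widely used carrier GLUT1, had 91.0, 223, 98.7, 87.9 and 357, above the median in samples 2 and 5. Samples 1, 3 and 4 lay close under the median. The hexose carriers of liver, muscle and gut, Slc2a2, Slc2a4 and Slc2a5, were above the median on 0 arrays, as was the sodium-coupled glucose carrier Slc5a1.

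Slc2a8, the intracellular carrier GLUT8, had 361, 120.1, 144, 129 and 104.5 in samples 1 to 5, with sample 1 highest. Its second probe set was above the median on 0 arrays. Slc50a1, a sugar carrier of the SWEET family, had 231, 185, 183, 334 and 214, with sample 4 highest. Slc37a4, which brings glucose 6-phosphate into the endoplasmic reticulum and whose loss in humans lowers neutrophil numbers, had 369, 184, 48.7, 169.8 and 215, below the median in sample 3 alone. In cells, imported glucose is phosphorylated by hexokinases. Of the fixed list of 6 hexose phosphorylation genes, 2 were measured, and both Hk1 and Hk2 were above the limit, Hk1 with 7396, 5068, 2339.9, 2426 and 1194 in samples 1 to 5.

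The 3 measured lactate and pyruvate carriers were not above the limit. Each is measured by 1 probe set, and the low place of a probe set does not show that the transcript is low. Slc16a1, the carrier MCT1, had 69.2, 98.0, 81.8, 80.2 and 5.22 in samples 1 to 5, Slc16a7, the carrier MCT2, was between 3.31 and 60.5, and Slc16a8, the carrier MCT3 known from retinal epithelium, between 16.3 and 119. All 3 were lowest in sample 5. Bsg and Emb, which encode their chaperone glycoproteins basigin and embigin, were both above the limit. Bsg had 1638, 678, 613, 624 and 926, and Emb had 2492, 2942, 3605, 4151 and 2722. These signals come from other probe sets and are not set against those of the carriers.

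Carriers of vitamins, choline and nucleosides were also read. Slc19a1, the reduced folate carrier, had 288, 198, 263, 197 and 191 in samples 1 to 5 with a probe set marked as shared within a sequence family. Its other probe set had 395, 149, 125, 74.2 and 131, below the median in sample 4. Slc23a2, the ascorbate importer SVCT2, had 245, 360.0, 325, 533 and 390.1. Slc29a1, the nucleoside carrier ENT1, had 223, 209, 149, 451 and 259, with sample 4 highest, and its second probe set was above the median on 1 array. Slc23a3, an SVCT family member, had 237, 406, 269, 274 and 310.2. Its second probe set had 77.8, 130.0, 121, 116 and 83.7, above the median on 3 arrays. Slc46a1, the proton-coupled folate carrier of the gut, was above the median on 0 arrays, between 12.9 and 48.0.

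All 3 measured choline carrier genes of the SLC44 family were above the limit. Slc44a1, also known as CD92, had 115, 319, 129, 328 and 119 in samples 1 to 5, so samples 2 and 4 formed a high pair and the other three samples a low group. Slc44a2, a choline carrier of blood cells and endothelium, had 445, 140.3, 278, 427 and 357, with sample 2 lowest. Slc44a4 had 178, 235, 104.1, 151 and 118, and its second probe set was above the median on 0 arrays.

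The SLC35 family includes carriers of sugar nucleotides for glycosylation in the Golgi apparatus and endoplasmic reticulum. Its members were placed by family, which does not show what each one carries. Of 10 SLC35 genes, 5 were above the limit, where the background was 44.5%. Slc35b1, an endoplasmic reticulum carrier, had 943, 732, 1232, 906 and 1492 in samples 1 to 5. Slc35b2, which brings the sulphate donor PAPS into the Golgi apparatus, had 466, 378, 369.7, 358 and 459 and differed little between samples, with an SD of 0.18 on the log2 scale. Both lay above the 75th percentile on all 5 arrays. Slc35c2 had 389, 328, 345, 464 and 632, and Slc35e1 had 415, 252, 314, 279.9 and 482. By these probe sets both were highest in sample 5 and lowest in sample 2. The second probe set of Slc35e1 was also above the limit, with 138, 171, 234, 142 and 178. It was highest in sample 3 and lowest in sample 1. Slc35e4 had 159, 288, 214, 266 and 184, with samples 2 and 4 highest. Slc35a2, the UDP-galactose carrier, was above the median on 4 arrays and fell short of it in sample 1, with 101. Slc35a1, Slc35d1, Slc35g3 and Slc35a4 were above the median on 2, 3, 2 and 0 arrays.

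**Figure D2:**
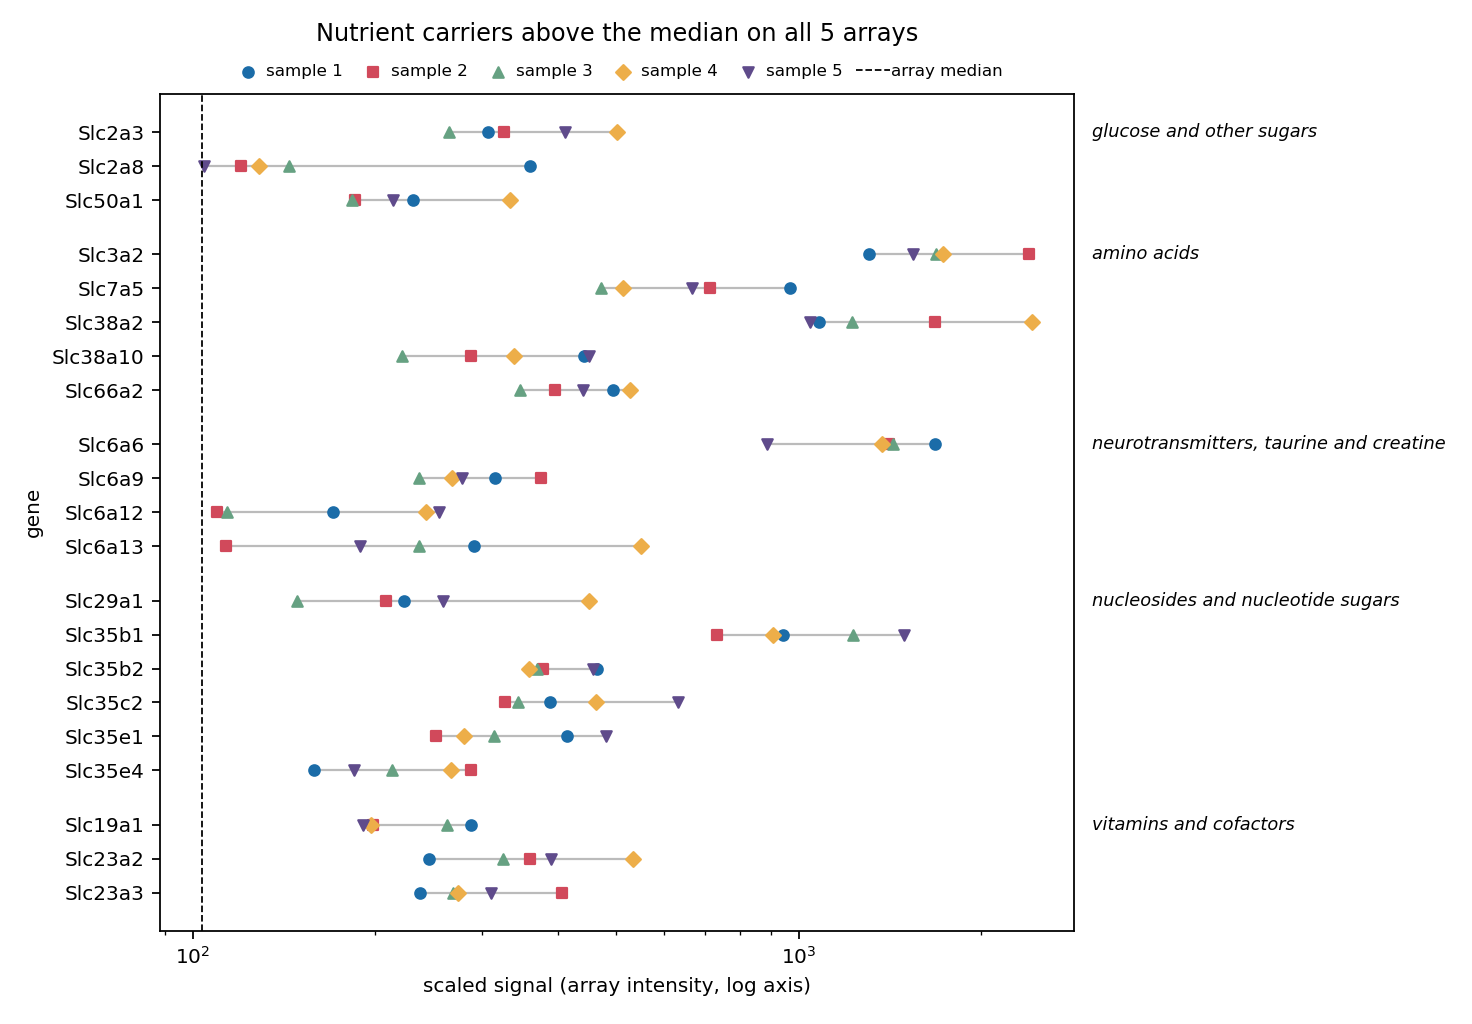
Scaled signal (horizontal log axis) of the 21 genes above the array median on all 5 arrays in 5 substrate classes, named at the right of each class's first gene. Each symbol is 1 sample, the grey line spans the samples and the dashed line is the array median of 103.4; Slc3a2, Slc38a2 and Slc6a6 sit far to the right of it, and Slc2a8 has sample 1 at 361 apart from the others.

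Iron carriers were mixed. Slc11a2, the divalent metal carrier DMT1 that moves iron out of endosomes after transferrin uptake, had 237, 229, 313, 139 and 170.0 in samples 1 to 5. Its second probe set had 105, 87.8, 114, 73.2 and 10.1, above the median on 2 arrays. Both probe sets were highest in sample 3. Slc11a1, the phagosomal metal carrier Nramp1 that restricts microbial growth in macrophages, had 43.5, 136, 103, 153 and 30.8, above the median in samples 2 and 4. In sample 3 it lay just under 103.4. Slc48a1, which carries heme out of lysosomes, had 185, 228, 120.0, 269 and 351 and was above the limit.

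Markers of resident macrophages and genes of neutrophil granules are given beside Slc11a1. The fixed list of resident macrophage markers had 5 of 10 measured genes above the limit, where the background was 44.5%. Among them were Adgre1 and the C1q chains, while Marco and Axl were above the median on 0 arrays. Its summed signal was 2334, 3427, 2048, 2813 and 1575 in samples 1 to 5. The neutrophil granule list had 11 of 12 genes above the limit, with summed signals of 82440, 180706, 135454, 276174 and 178495. Slc11a1 and both sums had their highest values in samples 2 and 4. The neutrophil sum is weighted to its brightest genes, such as S100a8 with 68953 in sample 2. Mpo, Elane, Prtn3, Ltf, Lcn2 and Camp were each lowest in sample 2, so the genes of that list did not share a pattern. The part of either cell type in Slc11a1 was not tested.

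Other genes of cell iron were read from a fixed list of 15, of which 11 were measured. Of these, 8 were above the limit, where the background was 44.5%. Tfrc, the transferrin receptor, had 1093, 1064, 856, 521 and 877 in samples 1 to 5, and Fth1, ferritin heavy chain, had 8523, 11468, 8593, 9907 and 9651. Tfrc was lowest in sample 4, as was the representative probe set of Slc11a2, while the second probe set of Slc11a2 was lowest in sample 5. Aco1, an iron-regulatory protein, and Cp, ceruloplasmin, were above the median on 0 arrays. Of 8 measured heme synthesis genes, 1 was above the limit, Alas1, the housekeeping first enzyme, between 1184 and 3964, while the erythroid form Alas2 was above the median on 0 arrays.

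Copper and zinc importers were above the limit in most cases, while 2 of 5 zinc exporter genes of the SLC30 family were. Slc31a1, the copper importer CTR1, had 1142, 2974, 1609, 2494 and 1447 in samples 1 to 5, with samples 2 and 4 the high pair. Its second probe set was also above the limit but put sample 3 first, with 488, 542, 749, 618 and 449. The high pair thus belongs to 1 of the probe sets. Of 7 zinc importer genes of the SLC39 family, 5 were above the limit. Slc39a7, which releases zinc from the endoplasmic reticulum and Golgi apparatus, had 693, 451, 617, 535 and 757, and Slc39a6, an importer of the plasma membrane, had 302, 764, 399.5, 499 and 180.1.

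Slc39a1, an importer of the plasma membrane, had 196, 488, 420.4, 446 and 293 in samples 1 to 5. Slc39a4, known for zinc uptake in the gut, had 279, 616, 378, 362 and 209. By these probe sets both were highest in sample 2, as was Slc39a6, while the second probe sets of Slc39a1 and Slc39a4 were highest in sample 5, with 194 and 161. Slc39a9 had 180.4, 134, 206, 212 and 197, lowest in sample 2. The second probe sets of Slc39a1 and Slc39a4 were above the median on 2 arrays and 1 array. Slc39a8, an importer of zinc and manganese, was between 48.0 and 136 and above the median in sample 2 alone. Among zinc exporters, Slc30a5, which loads the secretory pathway, was above the limit by both of its probe sets, with 188, 366, 363, 405 and 248 by the representative. Slc30a3, known from synaptic vesicles, had 739.5, 752, 311, 374 and 401, while its second probe set was above the median on 0 arrays. The surface exporter Slc30a1 was between 10.5 and 113 and above the median on 1 array.

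Metallothioneins bind zinc and copper inside cells. All 3 genes of the fixed zinc buffering list were above the limit, where the background was 44.5%. Mt1 had 4741, 1218, 2831, 5093 and 4477 in samples 1 to 5, with sample 2 lowest. Mt2 had 3761, 3894, 3247, 3922 and 1871, with sample 5 lowest, and Mtf1, the zinc-sensing transcription factor, had 106, 390.5, 321, 488 and 313, with sample 1 lowest. The 3 genes thus shared no low sample.

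SLC25 genes above the limit, most of them known as mitochondrial carriers, covered nucleotide exchange, the citrate and malate shuttles, fatty acid import, urea cycle intermediates and cofactors. Slc25a4, an ADP and ATP exchanger best known from heart and muscle, had 983, 2181, 1310.4, 1348 and 1109.7 in samples 1 to 5. Slc25a5, its counterpart in dividing cells, had 871, 487, 646, 755 and 501 with a probe set marked as shared within a sequence family. Sample 2 was highest for Slc25a4 and lowest for Slc25a5. The other probe sets of Slc25a5 lay above the median on 2 and 3 arrays, between 7.46 and 211 and between 32.6 and 208.

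Slc25a39, needed for glutathione import into mitochondria, had 932, 1795, 1049, 1759 and 979, with samples 2 and 4 the high pair as for Slc44a1. Slc25a11, the oxoglutarate and malate carrier, had 639, 618, 519, 846 and 918. Slc25a1, the citrate carrier that supplies acetyl groups for lipid synthesis, had 668, 267, 594, 438 and 722, with sample 2 lowest. Its second probe set was also low in samples 2 and 4, with 502, 151, 257, 80.7 and 278. Slc25a36, a pyrimidine nucleotide carrier, had 450.2, 732, 702, 990.4 and 316. Slc25a17, a peroxisomal member of the family, had 337, 415, 432, 693 and 389. Both were highest in sample 4. Slc25a4, Slc25a5, Slc25a11, Slc25a17, Slc25a36 and Slc25a39 were the 6 SLC25 genes above the 75th percentile on all 5 arrays.

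Slc25a28, mitoferrin 2, which brings iron into mitochondria in cells of many kinds, had 273, 313, 282, 328 and 269 in samples 1 to 5. Its SD of log2 signal was 0.13, and the highest sample was 1.22 times the lowest. Slc25a51, the mitochondrial NAD carrier, was as even, with an SD of 0.12 in the probe set with 146, 151, 143, 168 and 174. The representative probe set of Slc25a51 had 197, 186, 189, 166 and 135 and put sample 5 lowest, where the even one put it highest. Slc25a20, the carnitine and acylcarnitine carrier, had 379, 297, 262, 329 and 263, with sample 1 highest. Slc25a15, the ornithine carrier, was between 175 and 298. Slc25a44, a carrier of branched-chain amino acids, had 103.5, 117, 138, 173 and 125. The last pair were highest in sample 4.

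Other SLC25 genes varied or lay low. Slc25a10, the dicarboxylate carrier, had 187, 119, 125, 18.7 and 322 in samples 1 to 5, above the median on 4 arrays and low in sample 4. Slc25a25, a calcium-regulated carrier of ATP and phosphate, had 91.0, 271, 276, 238 and 25.6, high in samples 2 to 4. Slc25a3, the phosphate carrier that ATP synthesis needs, was between 29.3 and 76.0 and above the median on 0 arrays. It is measured by 1 probe set, and the low place of that probe set does not show that the transcript is low.

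**Figure D3:**
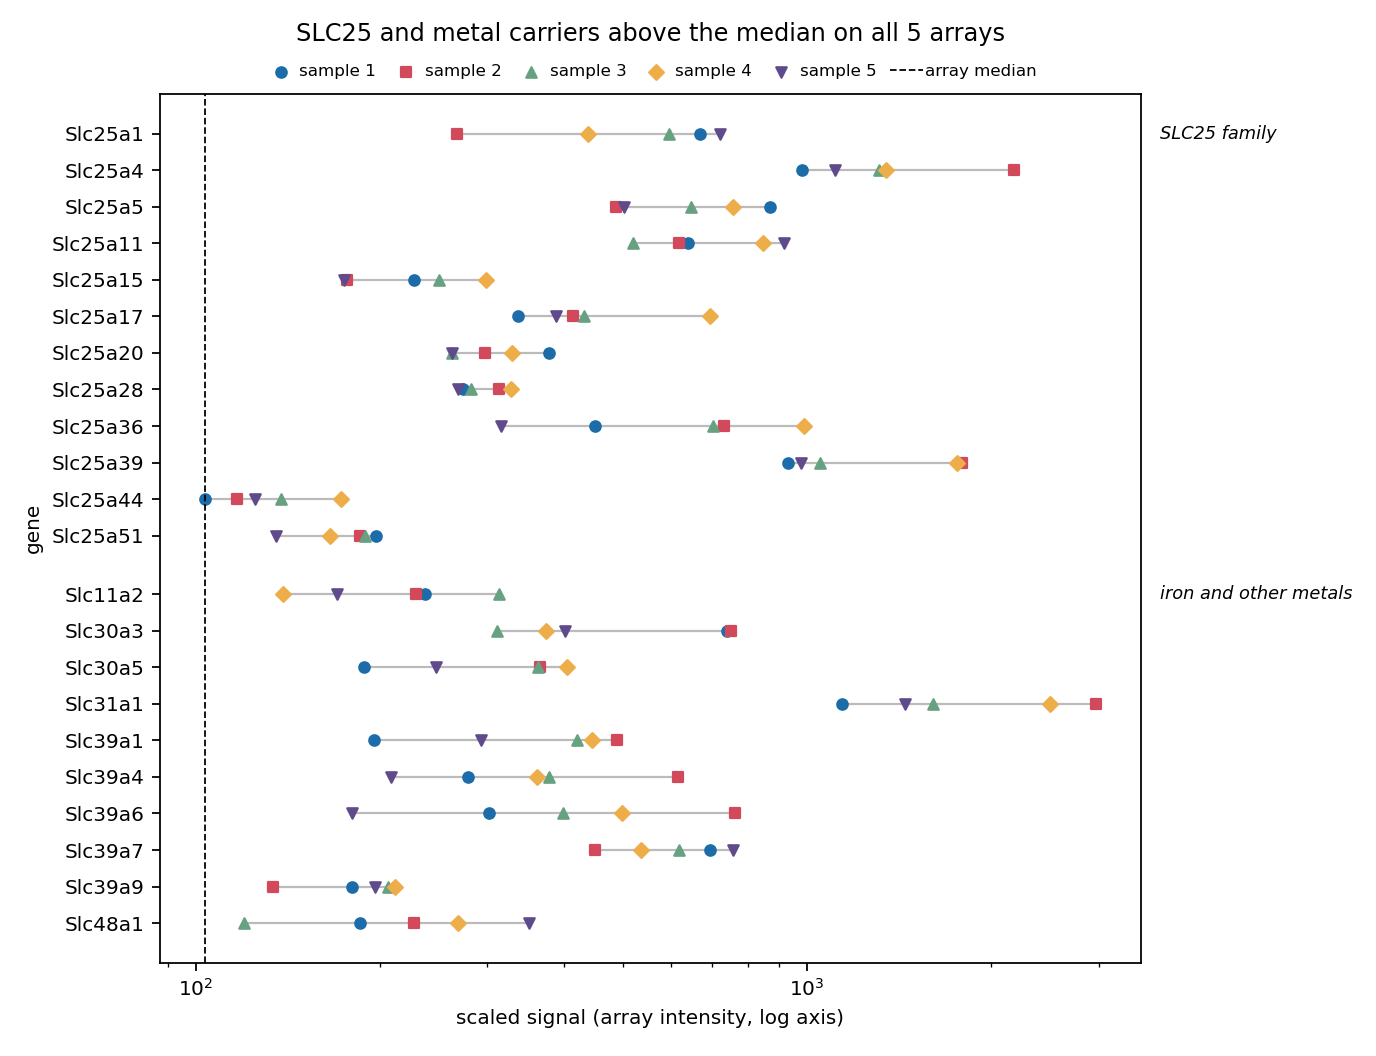
Scaled signal (horizontal log axis) of the 12 SLC25 genes and 10 metal carrier genes above the array median on all 5 arrays. Each symbol is 1 sample, the grey line spans the samples and the dashed line is the array median of 103.4; Slc25a28 spans 269 to 328, while Slc39a6 spans 180.1 to 764 and Slc25a44 begins at the median line.

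Ion carriers were the class with the lowest share above the limit among classes of at least 4 genes. Slc20a1, the phosphate importer PiT1, had 201, 247, 319.7, 273 and 217 in samples 1 to 5, and Slc9a8, a sodium and proton exchanger of the Golgi apparatus and endosomes, had 222, 294, 302, 251 and 257. Both ranged little, Slc9a8 with an SD of 0.18 on the log2 scale. Slc4a1, band 3, the bicarbonate and chloride exchanger of red cells, had 309, 121, 161, 187 and 116. Of 6 cation and chloride cotransporters of the SLC12 family, 0 were above the limit, and 10 of 20 ion carriers were above the median on 0 arrays.

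Red cell genes are given beside Slc4a1. Of the fixed list of 12 erythroid markers, 6 were measured and 0 were above the limit. Hba-a1 and Klf1 were above the median on 3 arrays each, Gata1 on 1, and Epor, Alas2 and Epb42 on 0. The summed signal of the 6 measured genes was 399.6, 529.6, 223, 581 and 433 in samples 1 to 5. Slc4a1 was highest in sample 1, and of the 6 genes Klf1 alone was too, with 194, 181, 30.7, 159 and 30.2. Hba-a1, a globin chain, had 47.8, 167, 45.6, 197 and 185, highest in sample 4, as was Gata1. Epor and Alas2 were highest in sample 5 and Epb42 in sample 2.

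Carriers named for nerve and kidney substrates were partly above the limit. Slc6a6, the taurine importer, had 1678, 1408, 1432, 1374 and 887 in samples 1 to 5, with sample 5 lowest, and its second probe set, between 104 and 227, was lowest there too. Slc6a9, the glycine importer GlyT1, had 316, 375, 236, 268 and 279. Slc6a12, which carries betaine and GABA, had 171, 109.7, 114, 242 and 255, and Slc6a13, a GABA carrier, had 291, 114, 237, 550.2 and 189. Both were lowest in sample 2. Slc6a8, the creatine carrier, was above the median on 0 arrays by either of its probe sets. Of 10 organic ion carriers of the SLC22 family, 1 was above the limit, the urate carrier Slc22a12, with 181, 179, 150.1, 134 and 232.

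Fatty acid carriers had 1 gene above the limit. Slc27a4, a protein that takes up and activates long-chain fatty acids, had 296, 179, 130.4, 257 and 600.0 in samples 1 to 5. Slc27a2, a family member best known from liver and kidney, had 15.7, 183, 105, 314 and 13.1, above the median in samples 2 to 4. The orphan member Slc10a3 of the bile acid carrier family had 217, 198, 215, 238 and 282, while Slc10a1, Slc10a2 and Slc10a6 were above the median on 0 arrays. Among the genes that are not carriers, Slc9a3r1 had 1478, 525, 658, 1221 and 923, and Slc4a1ap had 147, 277, 198, 234 and 173.

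Close to the limit, 10 genes were above the median on 4 arrays: Slc1a4, Slc38a5, Slc7a7, Slc37a4, Slc5a11, Slc4a2, Slc30a9, Slc25a10, Slc6a4 and Slc35a2. Among them Slc4a2 missed it in sample 4 with 99.8 and Slc38a5 in sample 5 with 100.4. Just inside, the lowest signals were 103.5 for Slc25a44 in sample 1, 104.1 for Slc44a4 in sample 3 and 104.5 for Slc2a8 in sample 5. Such genes cannot be told from those just outside. When 3 arrays sufficed, 73 solute carrier genes passed, or 48.3%, where the background was 57.3%. On single arrays, between 73 and 81 of the 151 genes lay above the median, or 48.3% to 53.6%, with 57.8% to 58.2% of all named genes.

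The spread between samples was close to that of genes at large. Among the 79 solute carrier probe sets with a mean log2 signal above the median, the median SD was 0.43 on the log2 scale, beside 0.47 over all 5814 such probe sets. Individual SDs ran from 0.12 for Slc25a51 to 1.65 for Slc1a5. The variance of each probe set was set against that of all 5814 with limma, in a fit with a trend on mean signal. The test called 0 of 79 solute carrier probe sets at a limma adjusted p of 0.05, where the background was 0%. At an unadjusted p under 0.05 it had 3 of 79 (3.80%), where the background was 4.99%. The lowest limma adjusted p among them was 0.925, for Slc1a5, Slc25a25 and Slc7a7 among others. The test sets probe sets against one another, so a spread common to all of them would not be called.

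**Figure D4:**
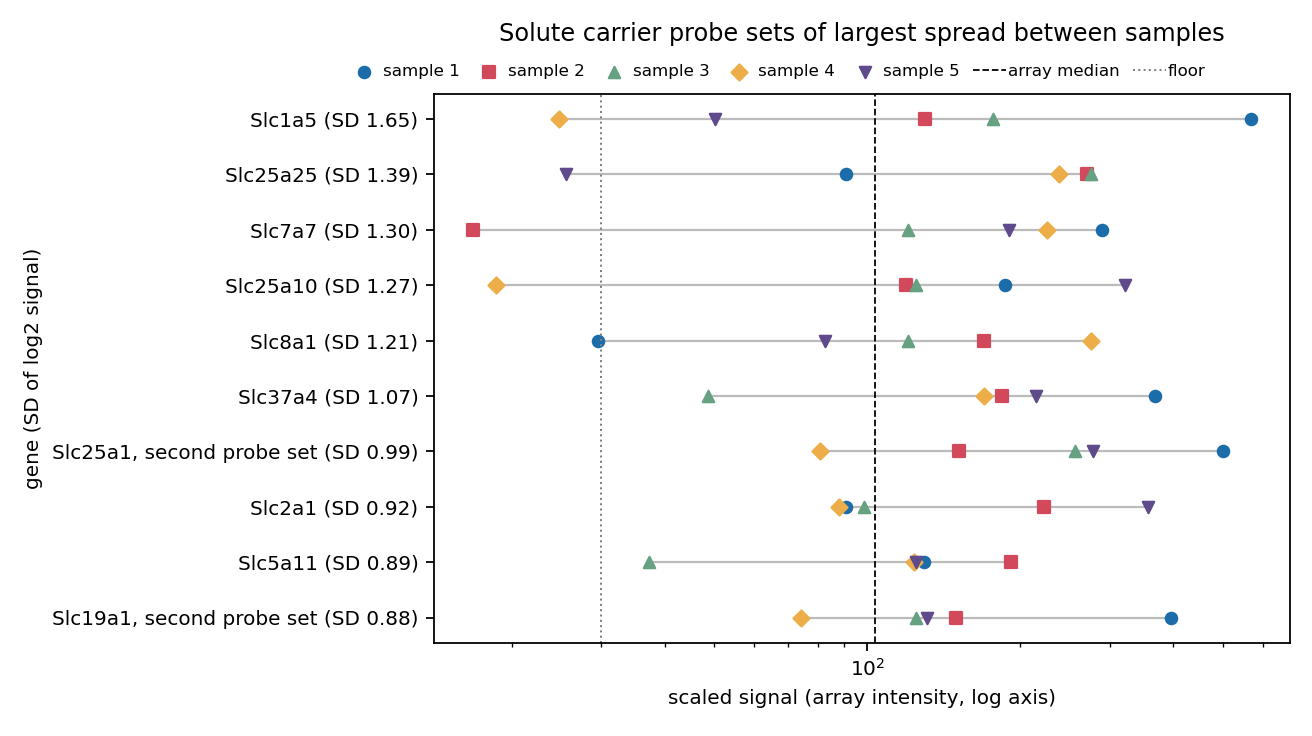
Scaled signal (horizontal log axis) of the 10 solute carrier probe sets with the largest SD of log2 signal among the 79 with a mean above the median. Each symbol is 1 sample, the dashed line is the array median of 103.4 and the dotted line the floor of 30.0 applied before SDs were taken; single samples fall far to the left, such as sample 2 for Slc7a7 at 16.8 and sample 4 for Slc25a10 at 18.7.

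The 10 probe sets of widest spread did not share 1 sample order. Sample 1 was highest for Slc1a5, Slc7a7, Slc37a4 and the second probe sets of Slc25a1 and Slc19a1, and sample 4 was lowest for 5 of the 10 (Slc1a5, Slc25a10, Slc2a1 and those same second probe sets). Slc8a1, a sodium and calcium exchanger, went the other way by this probe set, with 29.5, 170.1, 120.2, 276 and 82.5 in samples 1 to 5. Its other probe sets were above the median on 0 arrays, between 1.87 and 33.1 and between 4.35 and 47.2. Those were lowest in sample 4, where this one was highest. Slc5a11, an inositol carrier, had 129, 192, 37.3, 124 and 125, with sample 3 apart. Several of these spreads rested on 1 sample. The SD fell to 0.54 without sample 2 for Slc7a7, to 0.66 without sample 4 for Slc25a10, to 0.77 without sample 5 for Slc25a25 and to 0.74 without sample 1 for Slc8a1. It fell to 0.50 and 0.31 without sample 3 for Slc37a4 and Slc5a11, and to 0.44 without sample 1 for the second probe set of Slc19a1. Sample 4 was the highest sample for 24.1% of the 79 carrier probe sets, where the background was 28.0%. The median deviation of carriers there was 0.14 on the log2 scale. All 5814 probe sets had a median deviation of 0.19 in that sample. In samples 1, 2, 3 and 5 the median deviation of carriers was between -0.10 and 0.025.

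The promoters of the carriers were read for CpG dinucleotides, a feature that the rule did not use and that is frequent at the starts of genes active in many cell types. RefSeq windows on GRCm38.p6, from 250 bases before to 50 after a gene's start, were matched for 124 of the 151 genes, taking the first listed start of each gene. The ratio of observed to expected CpG exceeded 0.6 in 28 of 42 carriers above the limit (66.7%). It did so in 20 of 43 above the median on 1 to 4 arrays (46.5%) and in 20 of 39 above it on none (51.3%). Over all named genes the shares were 78.9%, 59.0% and 42.9% in the same order. Median ratios of the carriers were 0.68, 0.57 and 0.62, beside 0.81, 0.69 and 0.51 over all named genes. The carriers above the limit thus had CpG-rich windows less often than named genes above it, a description with no test.

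The sequences below show how far windows differed among carriers that were all above the limit, chosen as a CpG-rich, a middle and a CpG-poor example after their values were seen. They are printed 5′ to 3′ on the gene's strand, with each CpG in capitals. Slc25a39 lies on the minus strand at chr11:102407468-102407767 with 45 CpGs in 300 bases. Slc3a2 lies on the minus strand at chr19:8713848-8714147 with 15, and Slc22a12 on the minus strand at chr19:6543021-6543320 with 6.
Slc25a39: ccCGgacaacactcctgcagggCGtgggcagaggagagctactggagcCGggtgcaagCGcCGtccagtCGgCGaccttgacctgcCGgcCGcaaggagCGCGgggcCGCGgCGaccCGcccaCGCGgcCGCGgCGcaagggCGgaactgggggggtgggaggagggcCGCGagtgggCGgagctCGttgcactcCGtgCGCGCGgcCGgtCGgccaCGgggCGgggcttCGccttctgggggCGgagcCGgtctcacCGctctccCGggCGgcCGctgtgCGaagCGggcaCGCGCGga
Slc3a2: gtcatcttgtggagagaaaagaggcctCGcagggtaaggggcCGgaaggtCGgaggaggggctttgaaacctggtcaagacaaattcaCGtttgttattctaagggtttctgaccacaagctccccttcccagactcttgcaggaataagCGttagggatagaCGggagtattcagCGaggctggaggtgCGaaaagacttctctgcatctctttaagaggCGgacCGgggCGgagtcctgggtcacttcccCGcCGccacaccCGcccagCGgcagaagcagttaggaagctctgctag
Slc22a12: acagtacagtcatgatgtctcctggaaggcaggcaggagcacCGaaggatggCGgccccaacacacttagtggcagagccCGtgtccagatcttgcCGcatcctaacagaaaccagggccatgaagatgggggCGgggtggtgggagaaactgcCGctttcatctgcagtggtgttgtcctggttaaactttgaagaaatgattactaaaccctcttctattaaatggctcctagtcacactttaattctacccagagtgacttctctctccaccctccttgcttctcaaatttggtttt
The CpGs of Slc25a39 run through the whole window, while all 6 of Slc22a12 lie before the gene's start, in the first part of the window. The 3 genes had median signals of 1049, 1684 and 179 over the samples, which are not compared because they come from different probe sets.

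**Figure D5:**
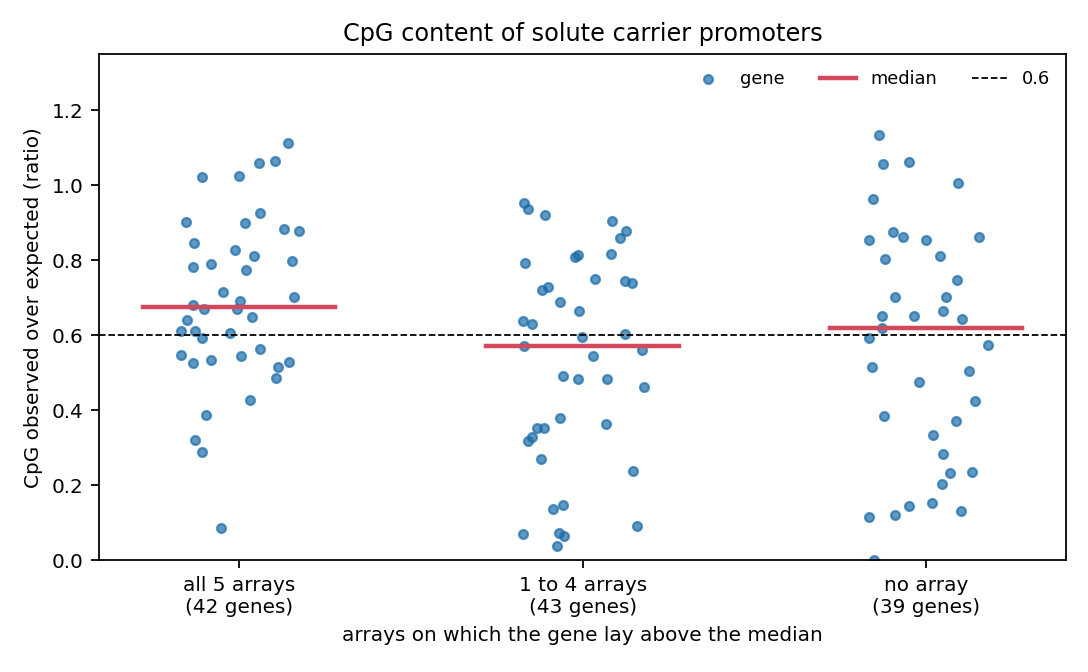
Ratio of observed to expected CpG (vertical axis) in the 300 bases around the start of solute carrier genes, grouped by the number of arrays on which the gene lay above the median (horizontal axis). Each point is 1 gene, red lines are medians (0.68, 0.57 and 0.62) and the dashed line marks 0.6; the groups overlap over most of their range.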

How the data were processed

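Each of the 5 samples was read on its own 1-colour array. The deposited values are linear intensity signals of 12488 probe sets; the sources used here name neither the software nor the target scale behind them. The table has 0 pairs of identical columns. The 66 control probe sets were dropped, and every array was brought to the median 103.4 by a single factor. For log2 values, signals below 30.0 (the 25th percentile of the scaled table) were set to 30.0. Symbols came from the platform annotation, where 10833 probe sets had 1 symbol, 396 had several and 1193 were unlisted. All 151 carrier genes matched the RefSeq table (GRCm38.p6), with 0 changed symbols. Members, substrate classes and lists were chosen with earlier results of these data known. By the rule for named genes, any carrier could be named, with per-sample values for genes above the limit and for the 10 probe sets of largest SD. Other named genes were Flt3, Itgam and members of the fixed lists. Per-sample values given for further carriers, and the printed promoters, were chosen after values were seen. Spread was tested with limma (version 3.58.1, R 4.3.3), with Benjamini-Hochberg adjustment over 5814 probe sets, and the procedure was tested on simulated data. Alternatives were other limits, probe set choices, scalings, floors and filters, and leaving out each sample. The labels do not state whether samples came from separate animals, and the number of arrays limits the precision.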

Additional observations from a re-analysis of the deposited data

Results flagged for a closer look

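Dixon's ratio at its 95% critical value was computed on log2 signals of 64 probe sets, those representing the 54 genes above the limit and the 10 of widest spread, and 2 passed. Chance alone gives about 1 in 20 in groups that were not chosen by their values. These were chosen by them, so that rate is no more than a guide, and 2 of 64 is not above it. Slc2a8, the intracellular carrier GLUT8, passed for sample 1, with 361 in sample 1 and 104 to 144 in the others. Slc5a11, an inositol carrier, passed for sample 3, with 37.3 in sample 3 and 124 to 192 in the others.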

How the results depend on the processing

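The limit had the most effect. At the 75th percentile the 54 solute carrier genes above it became 17, with 6 SLC25 genes, 4 amino acid, 3 metal, 2 nucleoside and nucleotide sugar and 1 neurotransmitter, taurine and creatine carrier, and 0 each for sugars, fatty acids, inorganic ions, vitamins and cofactors, and other organic solutes. At the 40th percentile 63 passed (background 51.1%), and inorganic ion carriers rose to 5. When 3 arrays sufficed, amino acid carriers rose to 10, sugar carriers to 5, inorganic ion carriers to 7 and fatty acid carriers to 2. Requiring every probe set of a gene left 40 genes, with 3 amino acid, 1 sugar, 6 metal and 1 vitamin carrier. Using plain probe sets alone, a choice made after the data were seen, left 49, with 1 vitamin carrier, and Slc19a1, Slc23a3, Slc25a5 and Slc39a4 were the 4 lost. Keeping control probe sets in the median changed 0 of the 54. Without single samples 55 to 57 genes passed. Sugar carriers went between 3 and 5, with 5 without sample 3, where Slc37a4 and Slc5a11 joined. Amino acid carriers went between 5 and 6, metal carriers between 10 and 11 and SLC25 genes between 12 and 13. In the values as deposited, where sample 1 kept its higher scale, the median SD of carriers was 1.14 (1.12 over all probe sets), and their median deviations were 1.85, -0.50, -0.48, -0.50 and -0.41 in samples 1 to 5. With no filter on signal the median SD was 0.54 and the deviation in sample 4 was 0. Quantile normalization brought that deviation to 0.029. Without single samples the median SD ran from 0.41 to 0.46. The deviation of sample 1 ran from -0.10 to 0.0043, turning its sign without sample 4. The limma variance test called 0 carriers under every alternative, with 0 to 7 at an unadjusted p under 0.05. No paired analysis was possible because the samples form 1 group. The cause of these changes was not tested beyond what each setting changes by construction.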
